A study of Mus musculus with 24 samples.

Results

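MacHigh is the sorted population with high surface Mac-1 in a mouse model of acute myeloid leukaemia (AML). Its 5 libraries, of 24 in the series, were chosen by the sort label alone, and they were compared with the 14 libraries of the 3 Mac-low populations of the same leukaemia. Leukaemia cells of genotype NRASG12V/Mll-AF9, in (FVB/n X C57/BL/6J) F1 mice, were taken from spleen and sorted by Mac-1, Kit and Sca-1, and total RNA was sequenced. The groups were MacHigh with 5 libraries, MacLowKit-Sca1- with 5, MacLowKit+Sca1- with 5, MacLowKit+Sca1+ with 4, and unsorted cells with 5, which are quoted as a background. Every group, unsorted cells included, carries both oncogenes, no group is normal, and none was treated. The labels give no age, no promoter for either transgene and no statement of how many animals or separate leukaemias the libraries came from, so p-values here reflect only how far these libraries spread, which may be technical.

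Mac-1 is the integrin made of the alpha M chain, encoded by Itgam, and the beta chain encoded by Itgb2. It binds complement fragments, fibrinogen and ICAM-1, and on normal blood cells it marks monocytes, macrophages and granulocytes and is low on blood stem and progenitor cells. Kit is the receptor for stem cell factor, and Sca-1, encoded by Ly6a, is a surface antigen of mouse stem and progenitor cells. The fusion of MLL with AF9 holds immature myeloid programmes open, and NRAS with the G12V change signals constantly to the RAF, MEK and ERK kinases.

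The values are FPKM, fragment counts scaled to transcript length and library size. Of 23361 rows, 11427 were tested, each with 1 FPKM or more in at least 4 of the 19 sorted libraries. MacHigh was compared with the mean of the 3 Mac-low group means on log2(FPKM + 1) with limma, and p-values were adjusted over all 11427 rows, so a difference given below is on that scale and understates the change of genes near 1 FPKM. A row was called at an adjusted p under 0.05. In that comparison 3125 rows, 27.3% of those tested, were called higher in MacHigh and 3347 rows, 29.3%, lower, and 829 of the first and 293 of the second were at least 1 log2 unit from the Mac-low mean. The median of all rows was -0.03. After each library was rescaled to the same FPKM sum, 2059 rows were higher and 4642 lower, with a median of -0.19, so the balance of higher to lower rests on the scaling, and small differences are best read against that shift. Rows for small RNAs held 5.03% to 23.4% of the FPKM sum in the MacHigh libraries and up to 32.4% in 1 Mac-low library. With the sum counted without those rows and without rows listed at 0.001 in a whole group, an alternative chosen after seeing the data, 2583 rows were higher and 4183 lower, with a median of -0.11.

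A stricter group of rows had every MacHigh library above, or below, all 14 Mac-low libraries. There were 823 rows above, 7.2% of those tested, and 605 below, 5.29%. Of the 823, 781 were also called against each of the 3 groups separately, and 218 lay at least 1 log2 unit from the nearest group. Of the 605 lower rows, 542 were called against each group and 42 lay at least 1 log2 unit from the nearest. The nearest group was MacLowKit-Sca1- for 467 of the 823 higher rows and MacLowKit+Sca1+ for 368 of the 605 lower rows. Unsorted cells had a mean between the MacHigh range and the Mac-low mean for 770 of the 823 and 569 of the 605. Against single groups, 2865 rows (25.1%) were higher and 2694 (23.6%) lower than in MacLowKit-Sca1-. Against MacLowKit+Sca1-, 3406 (29.8%) were higher and 3649 (31.9%) lower, and against MacLowKit+Sca1+ 2445 (21.4%) were higher and 2516 (22%) lower. MacHigh libraries correlated with each other at a median Pearson r of 0.962 across rows, which are not independent replicates. The median was 0.907 with MacLowKit-Sca1-, 0.876 with MacLowKit+Sca1+ and 0.812 with MacLowKit+Sca1-. These correlations also held 37 rows that the tests left out as missing, listed at 0.001 in a whole group. For 35 of them that group was MacLowKit+Sca1-, and for 2 it was MacHigh.

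The sorted markers were read first. Itgam read 631, 693, 582, 659.5 and 599.99 FPKM in MacHigh, 203, 296, 382, 158 and 295 in MacLowKit-Sca1-, 199, 396, 137, 182 and 422 in MacLowKit+Sca1- and 39.2, 52.6, 97.96 and 58.1 in MacLowKit+Sca1+. No Mac-low library reached the lowest MacHigh value. The log2 difference was 2.03 ± 0.25 (SE; adjusted p = 1.9e-06) against the Mac-low mean, and the exact two-sided permutation test gave p = 0.007937 against each of the 3 groups, the smallest value that these group sizes allow and also the adjusted value over the 3 tests. Mac-1 was a sorting marker, so this difference checks the label and is no finding. Kit read 7.17, 5.23, 6.03, 5.29 and 5.22 FPKM in MacHigh, 0.643, 0.572, 0.744, 0.487 and 0.895 in MacLowKit-Sca1-, 54.1, 38.7, 36.8, 37.6 and 31.7 in MacLowKit+Sca1- and 26.8, 32.02, 43.6 and 34.8 in MacLowKit+Sca1+. The MacHigh values lay between the Kit- group and both Kit+ groups. Ly6a read 1.87, 3.46, 1.55, 2.77 and 2.11 FPKM in MacHigh and 7.2, 9.75, 8.07 and 5.64 in MacLowKit+Sca1+, with all other Mac-low libraries at or below 1.74. Itgb2, the beta chain that pairs with the alpha chain in Mac-1, averaged 646 ± 35.4 FPKM in MacHigh and at most 375 ± 141 in a Mac-low group, and it was above every Mac-low library. The fusion transgene has a row of its own, Mll-AF9, and it read 9.5, 11.01, 9.95, 7.7 and 9.14 FPKM in MacHigh, 7.5, 7.37, 9.16, 7.81 and 7.37 in MacLowKit-Sca1-, 9.82, 11.9, 8.31, 7.82 and 8.98 in MacLowKit+Sca1- and 10.9, 9.42, 11.4 and 7.88 in MacLowKit+Sca1+. Its groups overlapped, and it was called in none of the comparisons, with a difference of 0.07 ± 0.10 (SE; adjusted p = 0.58) against the Mac-low mean. The Nras, Mll1 and Mllt3 rows were listed at 0.001 in all 24 libraries, so the NRAS transgene was not read here. In such bulk samples, fewer cells of a type and less RNA per cell cannot be told apart.

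The genes farthest above the Mac-low groups were of mixed function. The 15 genes named first were those with the largest difference from their nearest Mac-low group. They were taken among rows called in all comparisons with no overlap between MacHigh and any Mac-low library. Cd209a, a C-type lectin related to human DC-SIGN, read 35.6, 228, 108, 89.8 and 239 FPKM in MacHigh, 1.02, 1.76, 5.27, 1.94 and 8.99 in MacLowKit-Sca1-, 0.364, 0.866, 0.54, 0.716 and 1.39 in MacLowKit+Sca1- and 0.554, 1.2, 3.25 and 0.989 in MacLowKit+Sca1+. Its MacHigh values spread widely, and the lowest was still above the highest Mac-low library. Mmp12, the macrophage elastase, read 14.9, 29.5, 12.7, 59.4 and 38.3 FPKM in MacHigh, 0.364, 0.322, 0.542, 0.0586 and 0.392 in MacLowKit-Sca1-, 0.238, 0.174, 0.0273, 1.09 and 0.0774 in MacLowKit+Sca1- and 0.512, 0.827, 0.382 and 0.679 in MacLowKit+Sca1+. Every Mac-low library was near or under 1 FPKM. Ccl2, the ligand of CCR2 that draws monocytes into tissue, read 70.8, 127, 58.9, 125 and 97.7 FPKM in MacHigh, 4.48, 2.34, 6.95, 3.77 and 6.66 in MacLowKit-Sca1-, 1.07, 0.214, 0.588, 2.91 and 0.454 in MacLowKit+Sca1- and 3.4, 2.56, 1.29 and 8.13 in MacLowKit+Sca1+. Dab2, an endocytic adaptor, read 40.5, 122, 57.9, 88.2 and 95.6 FPKM in MacHigh, 2.08, 2.55, 2.04, 1.79 and 2.66 in MacLowKit-Sca1-, 1.25, 0.934, 1.27, 1.78 and 0.935 in MacLowKit+Sca1- and 2.88, 4.65, 1.77 and 7.85 in MacLowKit+Sca1+. The highest Mac-low value of both genes was 1 MacLowKit+Sca1+ library, and it stayed well under the MacHigh range. Pltp, the phospholipid transfer protein of plasma lipoproteins, read 208, 277, 177, 334 and 329 FPKM in MacHigh, 6.98, 10.97, 7.83, 4.82 and 29.7 in MacLowKit-Sca1-, 1.52, 0.776, 0.506, 2.2 and 0.83 in MacLowKit+Sca1- and 22.6, 20.9, 5.86 and 26.7 in MacLowKit+Sca1+. The Mac-low libraries of Pltp all lay below its MacHigh range, as the rule for naming these genes required. The log2 differences were 5.50 ± 0.39 (SE) for Cd209a, 4.31 ± 0.25 for Mmp12, 4.71 ± 0.30 for Ccl2, 4.56 ± 0.23 for Dab2 and 5.13 ± 0.33 for Pltp, with adjusted p from 1.6e-10 to 3.2e-09.

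**Figure D1:**
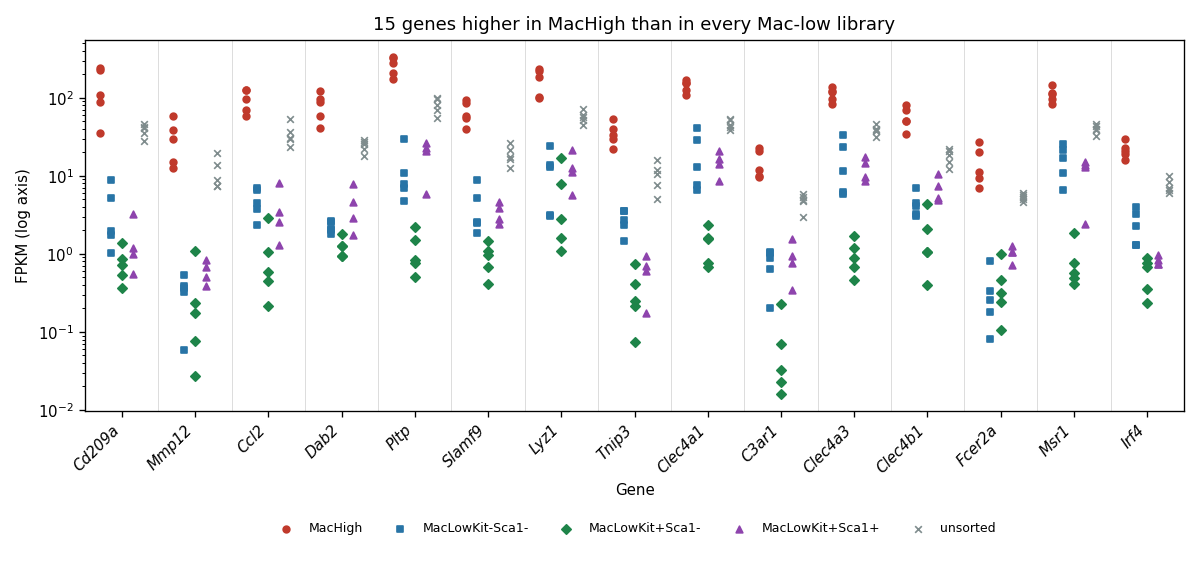
FPKM on a log axis of the 15 genes farthest above their nearest Mac-low group, 1 point per library, with groups by colour and marker. All MacHigh points lie above all Mac-low points of the same gene, from 12.7 FPKM upward for Mmp12 against at most 1.09. The unsorted libraries are drawn for reference, and for Cd209a and Mmp12 they overlap the MacHigh range.

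The other 10 were Slamf9, Lyz1, Tnip3, Clec4a1, C3ar1, Clec4a3, Clec4b1, Fcer2a, Msr1 and Irf4. Slamf9, a SLAM family receptor, averaged 67.1 ± 22.7 FPKM (SD, n = 5) in MacHigh and 4.18 ± 2.88 in MacLowKit-Sca1-, its highest Mac-low group. Tnip3, an A20-binding inhibitor of NF-kappaB signalling, averaged 35.6 ± 11.7 FPKM in MacHigh and 2.73 ± 0.874 in MacLowKit-Sca1-. C3ar1, the receptor for the complement fragment C3a, ranged from 9.74 to 23.01 FPKM in MacHigh and 0.016 to 1.54 over the Mac-low libraries. Msr1, the class A scavenger receptor, ranged from 82.8 to 146 FPKM in MacHigh and 0.41 to 25.8 over the Mac-low libraries. Irf4, a transcription factor of activated macrophages, dendritic cells and lymphocytes, ranged from 16.1 to 29.8 FPKM in MacHigh and 0.235 to 3.98 over the Mac-low libraries. The lysozyme gene Lyz1 averaged 167 ± 63.3 FPKM in MacHigh against 12.8 ± 6.52 in MacLowKit+Sca1+, and its near-identical neighbour Lyz2 was listed at 0.001 in every MacHigh library while it read 338 to 7396 FPKM over the Mac-low libraries and 3783 to 5088 in unsorted cells. Lyz2 was therefore taken as missing and not as absent, and the share of reads between Lyz1 and Lyz2 is uncertain. Psap, the precursor of the lysosomal saposins, was the other row listed at 0.001 in all 5 MacHigh libraries, with 288 to 4428 FPKM over the Mac-low libraries.

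Promoters of these genes were searched for the PU.1 core GAGGAAGT on both strands, PU.1 being the ETS factor that controls many myeloid genes, in RefSeq windows (GRCm38.p6, the same assembly as mm10) from 250 bases before to 50 after the start. The table held a window for 13 of the 15 genes, and Mmp12, Slamf9 and Tnip3 had a match before the start. The 250 bases before the start are shown because these genes were low in every Mac-low group and share this word, which is in capitals.
Mmp12, chr9:7344147-7344396, forward strand: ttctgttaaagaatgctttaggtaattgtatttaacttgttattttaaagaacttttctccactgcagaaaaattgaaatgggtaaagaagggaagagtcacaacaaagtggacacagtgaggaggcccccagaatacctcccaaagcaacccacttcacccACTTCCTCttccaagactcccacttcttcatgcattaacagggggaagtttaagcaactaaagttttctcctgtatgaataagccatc
Slamf9, chr1:172475110-172475359, forward strand: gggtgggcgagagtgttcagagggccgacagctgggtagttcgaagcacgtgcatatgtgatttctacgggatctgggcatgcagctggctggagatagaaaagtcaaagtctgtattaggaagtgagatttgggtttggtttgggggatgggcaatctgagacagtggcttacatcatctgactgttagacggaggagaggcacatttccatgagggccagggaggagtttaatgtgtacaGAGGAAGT
Tnip3, chr6:65590148-65590397, forward strand: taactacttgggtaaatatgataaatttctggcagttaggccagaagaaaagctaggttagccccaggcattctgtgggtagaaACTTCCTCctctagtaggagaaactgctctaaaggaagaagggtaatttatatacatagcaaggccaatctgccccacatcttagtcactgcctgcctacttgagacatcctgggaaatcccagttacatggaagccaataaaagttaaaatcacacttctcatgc
The match began 88 bases before the start in Mmp12, 8 in Slamf9 and 166 in Tnip3, and it lay on the opposite strand in Mmp12 and Tnip3. Of the windows of all 9153 tested rows that had one, 3.57% held the word, against 5.35% of the 654 windows of rows above every Mac-low library and 1.84% of the 488 windows below. A further 3 words were counted in the same windows: the C/EBP word TTGCNNAA was in 8.41% of all, 9.33% of higher and 7.38% of lower, the AP-1 word TGANTCA in 5.09%, 6.42% and 2.87%, and the E-box CACGTG in 10.4%, 9.63% and 10.7%. Over all 27025 windows of the table the shares were 3.28% for PU.1, 10.8% for C/EBP, 7.93% for AP-1 and 7.24% for the E-box. A match is a description of the letters and not evidence of binding.

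Surface receptors of innate cells were higher in MacHigh as groups. Among Fc and paired immune receptors, 27 of 29 tested members were called higher and none lower, beside 27.3% and 29.3% of all rows, and the list median was 1.55 against -0.03 for all rows. 17 of the members had no overlap with any Mac-low library, where 7.2% of all rows had none. Fcgr2b, the inhibitory receptor for IgG, averaged 184 ± 34.4 FPKM in MacHigh, 103 ± 8.44 in MacLowKit+Sca1- and 59.1 ± 7.61 in MacLowKit-Sca1-. Sirpb1a, an activating signal-regulatory protein, averaged 47.1 ± 12.4 FPKM in MacHigh and 6.95 ± 4.07 in the nearest group, MacLowKit-Sca1-. Cd300ld, an activating member of the CD300 family, differed by 3.53 ± 0.25 (SE; adjusted p = 3.2e-09). Among C-type lectins, 12 of 19 were higher and 4 lower, with a median of 1.43, and against MacLowKit-Sca1- alone 15 were higher and none lower. Clec10a, a galactose-type lectin, averaged 98.1 ± 32.5 FPKM in MacHigh and 15.8 ± 6.46 in MacLowKit+Sca1+, and Clec4n, which encodes Dectin-2, averaged 108 ± 31.2 and 29.5 ± 13.98. Of the lectins that were lower, Cd207, which encodes langerin, averaged 43.6 ± 9.49 FPKM in MacLowKit+Sca1+ and 1.89 ± 1.01 in MacHigh, and Clec12a averaged 485 ± 16.3 in MacLowKit+Sca1- and 179 ± 24.9 in MacHigh. Each of these calls rested on 1 group: the difference was 0.31 without MacLowKit+Sca1+ (adjusted p = 0.322) for Cd207 and -0.12 without MacLowKit+Sca1- (adjusted p = 0.498) for Clec12a. Clec4b2 and Clec1b were the other 2, neither was below every Mac-low library, and Clec4b2 was -0.34 without MacLowKit+Sca1- (adjusted p = 0.242). Clec1b read 0.407 to 1.05 FPKM in MacHigh, 0.538 to 1.03 in MacLowKit-Sca1- and 0.458 to 1.58 in MacLowKit+Sca1-, which overlapped. Only MacLowKit+Sca1+ stood apart from MacHigh, at 1.22 to 5.98 FPKM. The Clec1b call was lost without MacHigh replicate 2 (adjusted p = 0.0633) or replicate 5 (0.0674).

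Toll-like receptors, their adaptors and inflammasome genes were higher in 29 of 32 cases and lower in none (median 1.07). Cd14, the lipopolysaccharide co-receptor, ranged from 94.99 to 119 FPKM in MacHigh and 3.43 to 71.4 over the Mac-low libraries. Nlrp3, the inflammasome sensor, averaged 40.4 ± 4.58 FPKM in MacHigh and 21.2 ± 2.07 in MacLowKit-Sca1-. Tlr8 and Tlr13, endosomal sensors of RNA, differed by 2.71 ± 0.22 and 2.04 ± 0.17 (SE). Of the integrins and their ligands, 17 of 21 were higher and 1 lower, the ligand Icam2 at -0.67 ± 0.15 (SE; adjusted p = 0.0011). Itgb1, the beta 1 chain, averaged 122 ± 10.8 FPKM in MacHigh and 98.6 ± 5.83 in MacLowKit+Sca1+, and Itgb5 averaged 17.1 ± 7.86 in MacHigh and 0.454 ± 0.149 in MacLowKit+Sca1-. The other 2 groups were nearer for Itgb5, which read 9.47 to 27.7 FPKM in MacHigh and 4.14 to 7.44 in MacLowKit-Sca1-. In MacLowKit+Sca1+ Itgb5 read 6.91 to 18.4 FPKM, which overlapped MacHigh. The numbers of calls in these 4 lists moved by at most 2 calls in either direction under the 4 other scalings of the libraries.

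Classical monocyte genes had the highest list median, 2.15, with 18 of 24 called higher and 3 lower. Ccr2, the receptor for CCL2, averaged 218 ± 27.8 FPKM in MacHigh, 97.6 ± 10.2 in MacLowKit-Sca1-, 19.2 ± 3.46 in MacLowKit+Sca1+ and 12.5 ± 2.79 in MacLowKit+Sca1-. Fn1, fibronectin, followed the same order at 241 ± 100.4, 75.8 ± 18.5, 2.98 ± 1.61 and 2.33 ± 1.7 FPKM, and the last 2 of these groups were close. Cx3cr1, the fractalkine receptor of patrolling monocytes and macrophages, ranged from 73.4 to 135 FPKM in MacHigh and 0.999 to 40.4 over the Mac-low libraries, and Vcan, the proteoglycan versican, ranged from 30.4 to 64.2 FPKM in MacHigh and 0.248 to 24.8 over the Mac-low libraries. The members lower in MacHigh were Plac8 (-1.20 ± 0.15), Clec12a (-0.56 ± 0.12) and Mgst1 (-0.70 ± 0.23), and of these only Plac8 was below every Mac-low library. The Clec12a call rested on MacLowKit+Sca1-, as given above, and so did that of Mgst1, at -0.16 without MacLowKit+Sca1- (adjusted p = 0.613), with 43.9 ± 19.2 FPKM in MacHigh, 35.1 ± 8.17 in MacLowKit+Sca1+ and 152 ± 53.3 in MacLowKit+Sca1-. The Mgst1 call was also lost without MacHigh replicate 2 (adjusted p = 0.0513) or replicate 5 (0.0529). Of the 26 listed genes 24 were tested.

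Chemokine ligands were higher in 14 of 18 cases and lower in 3 (median 1.35). Ccl6 and Ccl9, CC chemokines of mouse macrophages, averaged 356 ± 94.8 and 222 ± 26.3 FPKM in MacHigh and 65 ± 23.95 and 101 ± 9.33 in MacLowKit-Sca1-. Ccl7, a second CCR2 ligand, averaged 16.4 ± 8.1 FPKM in MacHigh and at most 2.08 ± 1.92 in a Mac-low group. Xcl1, a chemokine of NK and T cells, was below every Mac-low library, with 0.135 ± 0.189 FPKM in MacHigh and 18.3 ± 2.52 in MacLowKit+Sca1+. Ccl5 averaged 3.45 ± 1.59 in MacHigh and 87.6 ± 53.4 in MacLowKit-Sca1-. NK cell markers were read beside these 2 genes: 9 of 12 tested NK markers were lower in MacHigh, 4 of them below every Mac-low library, and 1, Klrd1, was above every Mac-low library at 20.8 to 46.7 FPKM. Against MacLowKit+Sca1- alone 6 were lower and 3 higher, and their summed level was 40.6 to 67.1 FPKM in MacHigh against 72.2 to 246 in MacLowKit-Sca1-, 135 to 302 in MacLowKit+Sca1+ and 273 to 518 in MacLowKit+Sca1-. In the last group Nkg7 alone, which is also a granule gene, read 247 to 498 FPKM, and the mean log2 level of the list was 1.37 to 1.92 there and 1.17 to 1.40 in MacHigh. The granzyme gene Gzma averaged 0.713 ± 0.554 FPKM in MacHigh and 54.4 ± 34.8 in MacLowKit-Sca1-, and the NK receptor Ncr1 averaged 0.154 and 12.2. Their part in the Xcl1 and Ccl5 values was not tested. Of chemoattractant receptors, 11 of 19 were higher and 4 lower. Cmklr1, the chemerin receptor, averaged 19.7 ± 6.79 FPKM in MacHigh and 5.11 ± 1.998 in MacLowKit+Sca1+. Ccr3 (-0.71 ± 0.18), Ccr7 (-0.41 ± 0.13) and Ccr9 (-0.51 ± 0.08), each with a MacHigh median under 1 FPKM, were among those lower. Ccr3 and Ccr9 reached 1 FPKM in 4 libraries only through MacLowKit+Sca1+, and that group alone carried their calls. Ccr3 read 0.49 to 1.12 FPKM in MacHigh, 10.1 to 32.8 in MacLowKit+Sca1+ and at most 0.28 in the other groups. Ccr9 read 0.076 to 0.335 FPKM in MacHigh, 2.26 to 3.66 in MacLowKit+Sca1+ and at most 0.22 elsewhere.

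Macrophage scavenger and lipid genes were higher than in the Mac-low mean in 25 of 30 cases and lower in 3 (median 1.73), and this mean covered unlike groups. Against MacLowKit+Sca1- the count was 26 higher and 1 lower, against MacLowKit-Sca1- 25 and 1, and against MacLowKit+Sca1+ 12 and 8. Trem2, a lipid-sensing receptor of macrophages and microglia, averaged 131 ± 17.2 FPKM in MacHigh, 57.1 ± 9.69 in MacLowKit-Sca1- and under 5 in both Kit+ groups. Spp1, osteopontin, averaged 226 ± 40.2 in MacHigh and 155 ± 16.1 in MacLowKit-Sca1-, and Apoc2, an activator of lipoprotein lipase, 57.1 ± 12.7 and 20.2 ± 6.14. Apoe and Mrc1, the mannose receptor, which were chosen after their values were seen, did not pass the test against MacLowKit+Sca1+: Apoe averaged 438 ± 192 FPKM in MacHigh and 371 ± 191 there (adjusted p = 0.61), and Mrc1 58.4 ± 39.5 and 38.8 ± 17.9 (adjusted p = 0.4). Timd4, a receptor for phosphatidylserine on tissue macrophages, averaged 0.401 ± 0.181 FPKM in MacHigh and 7.15 ± 3.52 in MacLowKit+Sca1+.

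Lysosomal genes were higher in 34 of 38 cases (median 0.77), and 18 of the 38 were above every Mac-low library. The cathepsin Ctsc averaged 321 ± 47.4 FPKM in MacHigh, 206 ± 20.5 in MacLowKit-Sca1- and 24.4 ± 5.96 in MacLowKit+Sca1-. Ctsa, the protective protein of beta-galactosidase and neuraminidase, Npc1, the lysosomal cholesterol exporter, and Asah1, acid ceramidase, differed by 1.58 ± 0.09, 1.12 ± 0.08 and 1.08 ± 0.08 (SE). The 1 member lower was Cd63, a tetraspanin of late endosomes and granules, with 83.2 ± 8.29 FPKM in MacLowKit+Sca1- and 9.44 ± 3.49 in MacHigh. Cd63 averaged 7.23 ± 1.11 in MacLowKit-Sca1-, and its call rested on MacLowKit+Sca1-, with a difference of -0.39 without MacLowKit+Sca1- (adjusted p = 0.196). Matrix proteins and proteases were higher in 23 of 25 cases and lower in none. Ecm1 averaged 80.0 ± 14.3 FPKM in MacHigh and 16.4 ± 10.5 in MacLowKit-Sca1-. Of 13 complement genes tested among 20 listed, 10 were higher and 2 lower. Against MacLowKit+Sca1+ alone 6 were higher and 4 lower, with a median of 0.37. Cfp, properdin, averaged 609.7 ± 111 FPKM in MacHigh and 319 ± 38.02 in MacLowKit-Sca1-, while factor B (Cfb) differed by 1.84 ± 0.15 (SE). When each library was rescaled to the same FPKM sum, the lysosomal count was 28 of 38 and the number above every library 10.

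MHC class II genes were higher in all 15 tested members (median 1.66), while the pairwise counts were unlike. The call held for 15 of 15 against MacLowKit-Sca1- and against MacLowKit+Sca1-, with medians of 2.48 and 2.71. Against MacLowKit+Sca1+ it was 3 higher and 4 lower, with a median of -0.57. The 3 above every Mac-low library were Cd40 and Cd80, which give co-stimulation to T cells, and the cathepsin Ctss, which trims the invariant chain. Ctss averaged 780.1 ± 108 FPKM in MacHigh and 336 ± 49.2 in MacLowKit+Sca1+. H2-DMb1, part of the peptide exchange factor, averaged 140.3 ± 37.4 and 168 ± 33.3 FPKM in those groups and 21.8 ± 4.74 in MacLowKit-Sca1-. The invariant chain Cd74, chosen after its values were seen, averaged 6833 ± 2271 FPKM in MacHigh, 10014 ± 2573 in MacLowKit+Sca1+ and 646 ± 370.1 in MacLowKit-Sca1-.

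Markers of 2 other spleen cell types moved with those values. Of 14 tested dendritic cell markers, MacHigh was lower in 9 and higher in none against MacLowKit+Sca1+, and higher in 9 and 8 against MacLowKit+Sca1- and MacLowKit-Sca1-. Their summed level was 613 to 1080.0 FPKM in MacLowKit+Sca1+, 282 to 470.5 in MacHigh and at most 187 in the other groups. Xcr1 and Clec9a, which mark cross-presenting dendritic cells, averaged 12.2 and 17.8 FPKM in MacHigh and 104.5 and 122 in MacLowKit+Sca1+. Markers of red pulp macrophages summed to 952 to 2236 FPKM in MacLowKit+Sca1+, 710.3 to 1249 in MacHigh and at most 197 elsewhere. Spic, the factor that defines those cells, averaged 9.22 ± 3.35 FPKM in MacHigh, 53.7 ± 16.1 in MacLowKit+Sca1+ and under 0.5 in both other groups, and the scavenger Cd5l averaged 2.98 and 67.3 in the first 2. Within that list Hmox1, heme oxygenase, and Emr1, the F4/80 antigen, were higher in MacHigh than in each Mac-low group, with 467 ± 134 and 129.5 ± 35.6 FPKM against 226 ± 60.6 and 32.4 ± 11.1 in MacLowKit+Sca1+. The part of these cell types in the class II, complement and scavenger values was not tested.

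**Figure D2:**
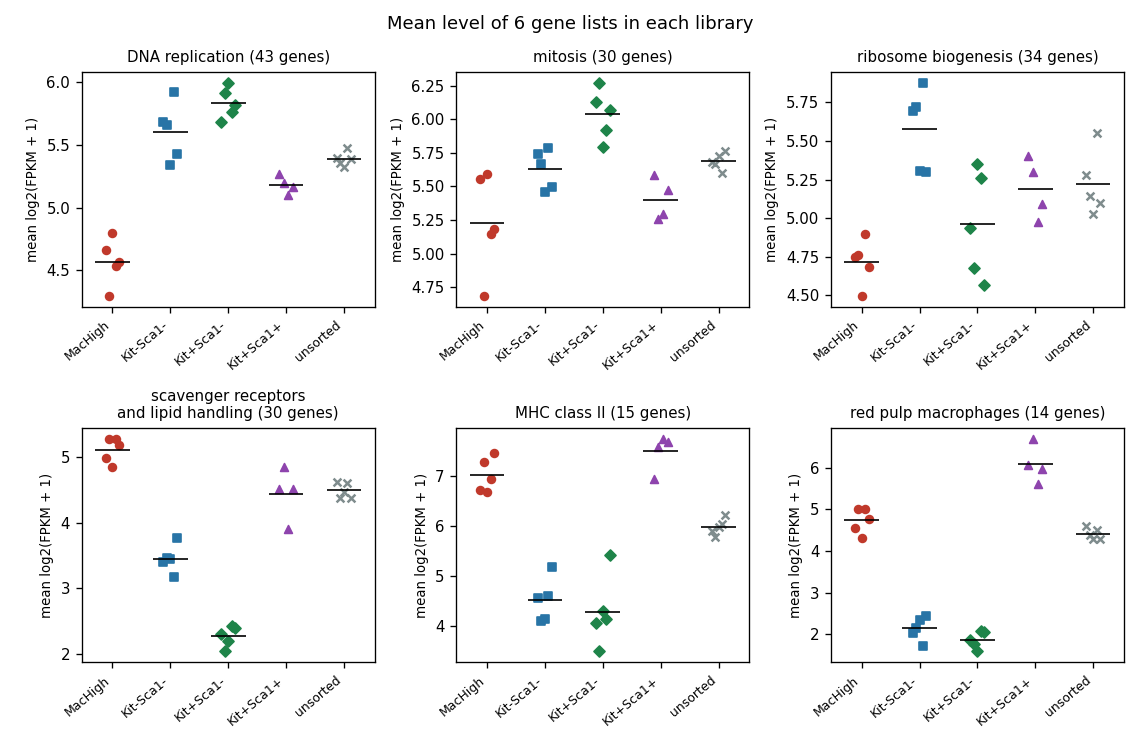
Mean log2(FPKM + 1) over the tested members of 6 gene lists, 1 point per library, with a bar at the group mean. DNA replication is lowest in MacHigh (4.29 to 4.79, against 5.10 or more in the Mac-low libraries), whereas MHC class II and red pulp macrophage genes are high in both MacHigh and MacLowKit+Sca1+.

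Transcription factors of myeloid differentiation were higher in 30 of 40 cases and lower in 3 (median 0.86). Zeb2 averaged 44.4 ± 7.82 FPKM in MacHigh and 26.2 ± 3.68 in MacLowKit-Sca1-. Klf4, a monocyte factor, did not separate MacHigh from MacLowKit-Sca1- (53.8 ± 11.4 and 48.6 ± 5.58 FPKM, adjusted p = 0.67) but was under 6 in both Kit+ groups. Maf, a macrophage factor, averaged 33.7 ± 17.2 FPKM in MacHigh, 13.6 ± 5.45 in MacLowKit+Sca1+ and 1.6 ± 1.07 in MacLowKit-Sca1-. Gfi1, a repressor needed for granulocytes, was lower at -1.73 ± 0.22 (SE; adjusted p = 2.5e-06), with 143 ± 17.01 FPKM in MacLowKit+Sca1- and 13.7 ± 5.8 in MacHigh. Tfec and Etv6 were the other 2 that were lower, at -0.80 ± 0.19 and -0.24 ± 0.06 (SE), and each call rested on 1 group. Tfec was -0.39 without MacLowKit+Sca1- (adjusted p = 0.118) and Etv6 -0.13 without MacLowKit+Sca1+ (adjusted p = 0.0836).

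Receptors for cytokines and growth factors were higher in 22 of 29 cases and lower in 3. Csf1r, the receptor for macrophage colony-stimulating factor, averaged 368 ± 80.6 FPKM in MacHigh, 108 ± 39.1 in MacLowKit-Sca1-, 92.1 ± 35.2 in MacLowKit+Sca1+ and 10.3 ± 2.06 in MacLowKit+Sca1-. Il17ra, Il13ra1 and Ifnar1, receptor chains for interleukin 17, interleukin 13 and type I interferon, differed by 1.69 ± 0.11, 2.77 ± 0.19 and 1.03 ± 0.08 (SE). Among cytokines, 13 of 22 were higher and 4 lower. Metrnl averaged 59.3 ± 7.96 FPKM in MacHigh and 13.97 ± 3.09 in MacLowKit+Sca1+, and Vegfa, the angiogenic factor, averaged 5.25 ± 2.64 in MacHigh, 37.6 ± 6.74 in MacLowKit+Sca1-, 10.7 ± 5.79 in MacLowKit+Sca1+ and 2.84 ± 1.09 in MacLowKit-Sca1-. Vegfa was called lower at -0.97 ± 0.25 (SE), but it was -0.10 without MacLowKit+Sca1- (adjusted p = 0.791). Interferon-stimulated genes were higher in 30 of 36 cases (median 0.75), but in 13 of 36 against MacLowKit+Sca1+ alone. Ifitm3, which blocks virus entry, averaged 839 ± 119 FPKM in MacHigh and 299.6 ± 99.3 in MacLowKit-Sca1-, and Ifit2 was lower at -0.66 ± 0.09 (SE; adjusted p = 1.3e-05). The Ifit2 call rested on MacLowKit+Sca1-, since the difference was -0.17 without MacLowKit+Sca1- (adjusted p = 0.174) and all MacHigh libraries (3.41 to 5.03 FPKM) were above those of MacLowKit-Sca1- (2.69 to 3.41).

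Feedback regulators and targets of the RAS-ERK pathway were higher in 22 of 34 cases and lower in 2 (median 0.80). Dusp6, the phosphatase of ERK, ranged from 137 to 256 FPKM in MacHigh and 28.6 to 106 over the Mac-low libraries. Etv5, an ETS factor induced by ERK, averaged 19.6 ± 4.83 FPKM in MacHigh and 8.57 ± 0.762 in MacLowKit-Sca1-, and Egr2 averaged 4.64 ± 1.95 and at most 1.29 ± 0.273 in a Mac-low group. Spred3 differed by 0.98 ± 0.09 (SE). The members lower were Myc (-0.98 ± 0.20) and the feedback inhibitor Spry2 (-0.99 ± 0.13), so the list did not move one way. Under rescaling to the same FPKM sum 17 members were higher and 4 lower.

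Granule genes were read by granule class. Of 14 primary granule genes that could be tested, 8 were lower and 1, Ctsc, higher (median -0.85), and Ctsg, Ms4a3 and Cst7 were below every Mac-low library. Nkg7, which is also an NK cell gene, averaged 11.1 ± 5.41 FPKM in MacHigh and 321 ± 107 in MacLowKit+Sca1-. The 4 others, Mpo, Elane, Prtn3 and Prss57, were among 35 rows listed at 0.001 in every MacLowKit+Sca1- library and at 5 FPKM or more in all of another group, and were compared only with the other 2 groups. Mpo, myeloperoxidase, averaged 110.8 FPKM in MacHigh, 311.1 in MacLowKit-Sca1- and 2147 in MacLowKit+Sca1+, with limma differences of -1.49 and -4.09 (adjusted p = 0.0023 and 4.9e-07). Elane, neutrophil elastase, averaged 157 FPKM in MacHigh and 1935 in MacLowKit+Sca1+. Secondary and tertiary granule genes were higher in 12 of 29 cases and lower in none, which became 11 higher and 3 lower after rescaling to the same FPKM sum. Against MacLowKit+Sca1+ 24 were higher and none lower, against MacLowKit-Sca1- 6 were higher and 5 lower, and against MacLowKit+Sca1- 9 were higher and 12 lower. The difference between the granule classes was not tested. Arg1, arginase, was the member above every Mac-low library, at 8.48, 14.4, 7.96, 31.9 and 7.82 FPKM in MacHigh and at most 3.38 in a Mac-low library. S100a4 and S100a6, small calcium-binding proteins, averaged 1923 ± 259 and 1328 ± 134 FPKM in MacHigh and 771 ± 219.8 and 939 ± 185 in MacLowKit-Sca1-, where S100a6 did not pass the test (adjusted p = 0.17). Of the phagocyte NADPH oxidase genes, 5 of 10 were higher and 1 lower, beside 27.3% and 29.3% of all rows. Against MacLowKit+Sca1- alone 3 were higher and 5 lower, with a median of -0.20. None was lower against the other groups, with 5 higher against MacLowKit-Sca1- and 8 against MacLowKit+Sca1+. Cybb, the catalytic chain of the oxidase, averaged 411 ± 45.7 FPKM in MacHigh, 454 ± 192 in MacLowKit+Sca1- and 77.8 ± 30.7 in MacLowKit+Sca1+. The Cybb difference was 0.39 without MacLowKit+Sca1+ (adjusted p = 0.185).

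The 15 genes farthest below the Mac-low groups were chosen by the same rule. Ctsg, the granule protease cathepsin G, read 129, 82.2, 98.1, 102 and 60.3 FPKM in MacHigh, 694, 748, 513, 584 and 475 in MacLowKit-Sca1-, 1435, 1345, 2483, 1829 and 829 in MacLowKit+Sca1- and 437, 343, 609.5 and 1028 in MacLowKit+Sca1+. Its highest MacHigh library was under the lowest Mac-low library by a wide margin. Sh2d5, an SH2 domain adaptor, read 5.03, 3.14, 4.57, 4.91 and 2.89 FPKM in MacHigh, 33.6, 30.95, 20.3, 33.2 and 25.5 in MacLowKit-Sca1-, 36.5, 31.5, 37.7, 36.3 and 23.6 in MacLowKit+Sca1- and 54.03, 41.7, 27.98 and 33.7 in MacLowKit+Sca1+. Chdh, the mitochondrial choline dehydrogenase, read 5.03, 2.86, 4.57, 3.25 and 2.25 FPKM in MacHigh, 19.3, 24.3, 17.5, 16.4 and 16.4 in MacLowKit-Sca1-, 39.1, 37.2, 49.5, 37.8 and 25.2 in MacLowKit+Sca1- and 26.3, 22.8, 19.3 and 21.4 in MacLowKit+Sca1+. Both genes were at 5.03 FPKM or less in MacHigh and above 16 in every Mac-low library. Il12a, the p35 chain of interleukins 12 and 35, read 0.985, 0.815, 0.835, 0.674 and 0.698 FPKM in MacHigh, 6.56, 7.08, 7.85, 6.42 and 6.17 in MacLowKit-Sca1-, 10.7, 6.16, 11.2, 9.49 and 7.02 in MacLowKit+Sca1- and 16.2, 11.4, 6.77 and 13.5 in MacLowKit+Sca1+. Phgdh, the first enzyme of serine synthesis from glucose, read 2.83, 1.46, 1.94, 1.74 and 1.33 FPKM in MacHigh, 16.8, 11.8, 8.27, 16.8 and 7.43 in MacLowKit-Sca1-, 6.94, 7.53, 12.2, 14.2 and 6.08 in MacLowKit+Sca1- and 19.4, 13.3, 9.05 and 8.59 in MacLowKit+Sca1+. All MacHigh values of Il12a were under 1 FPKM. The differences were -3.09 ± 0.24 (SE) for Ctsg, -2.75 ± 0.15 for Sh2d5, -2.53 ± 0.15 for Chdh, -2.45 ± 0.15 for Il12a and -2.06 ± 0.22 for Phgdh, with adjusted p of 3.7e-07 or lower.

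**Figure D3:**
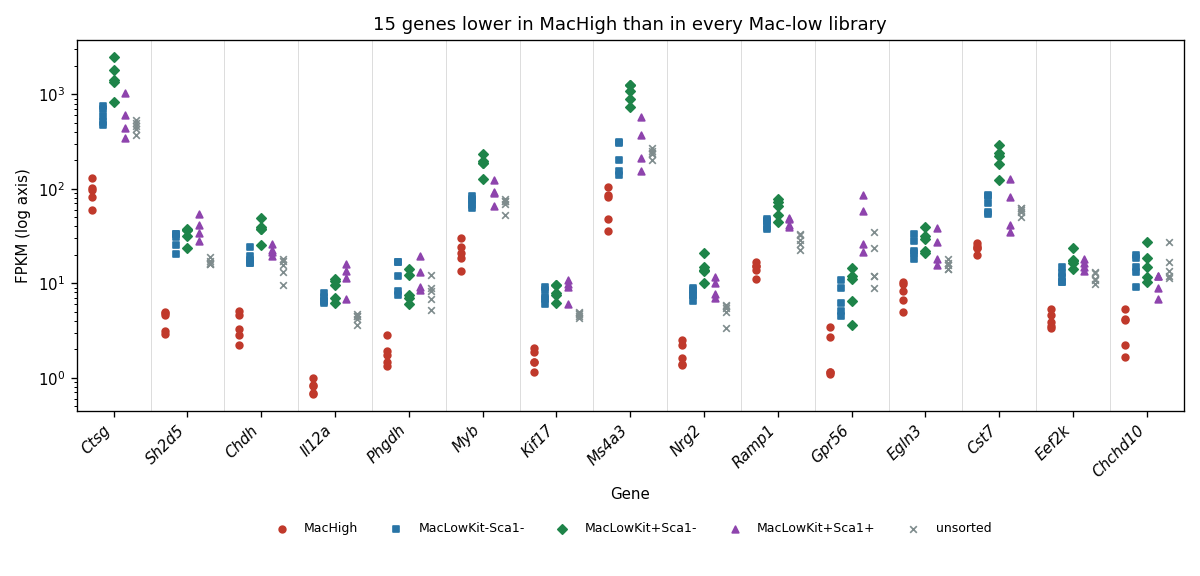
FPKM on a log axis of the 15 genes farthest below their nearest Mac-low group, 1 point per library. All MacHigh points lie below all Mac-low points of the same gene, from at most 129 FPKM for Ctsg against 343 or more.

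The other 10 were Myb, Kif17, Ms4a3, Nrg2, Ramp1, Gpr56, Egln3, Cst7, Eef2k and Chchd10. Myb, the transcription factor that maintains immature blood cells and MLL-fusion leukaemia, averaged 21.5 ± 6.15 FPKM in MacHigh, 73.4 ± 8.51 in MacLowKit-Sca1-, 93.4 ± 23.9 in MacLowKit+Sca1+ and 187 ± 38.6 in MacLowKit+Sca1-. Gpr56, an adhesion receptor of stem cells, ranged from 1.1 to 3.42 FPKM in MacHigh and 3.58 to 86.7 over the Mac-low libraries, a narrow gap. Egln3, a prolyl hydroxylase of hypoxia-inducible factors, ranged from 4.93 to 10.3 FPKM in MacHigh and 15.7 to 39.7 over the Mac-low libraries. Eef2k, the kinase that slows translation elongation, averaged 4.14 ± 0.817 FPKM in MacHigh and 12.1 ± 1.97 in MacLowKit-Sca1-, the nearest group. Kif17, a kinesin, lies next to Sh2d5, and both are described with the neighbouring genes below. Of the 30 genes named first, the smallest ratio between the nearest Mac-low library and the MacHigh extreme was 1.05, for Gpr56, followed by 1.28 for Chchd10, 1.33 for Ms4a3 and 1.33 for Cst7.

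DNA replication genes were lower in MacHigh without exception in the list. All 43 of 43 members were called lower, beside 29.3% of all rows, with a median of -0.998 and none nearer to 0 than -0.50, and 38 were below every Mac-low library, beside 5.29% of all rows. The count of 43 was the same under each of the 4 other scalings, and the number below every library was 34 to 40. Against MacLowKit+Sca1+ alone 41 were lower, with a median of -0.61, and against MacLowKit+Sca1- and MacLowKit-Sca1- all 43 were, with medians of -1.29 and -1.07. Mcm2 and Mcm7, subunits of the replicative helicase, averaged 39.8 ± 4.05 and 23.4 ± 3.83 FPKM in MacHigh and 73.1 ± 5.07 and 49.1 ± 5.56 in the nearest group, MacLowKit+Sca1+. Orc1, of the origin recognition complex, averaged 2.8 ± 0.466 and 5.86 ± 0.447, and Uhrf1, which carries DNA methylation through replication, 28.7 ± 3.44 and 46.6 ± 2.73. The mean log2 level of the list was 4.29 to 4.79 in MacHigh, 5.10 to 5.27 in MacLowKit+Sca1+, 5.34 to 5.92 in MacLowKit-Sca1- and 5.68 to 5.99 in MacLowKit+Sca1-.

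Promoters of the replication genes were searched for the E2F word GGCGGGAA, E2F being the factor family that turns on replication genes as cells enter S phase. A window was found for 35 of the 43, and 7 held the word (20%), against 4.39% of all tested rows with a window, 8.4% of those below every Mac-low library, 1.99% of those above and 2.24% of the whole table. Shown are 4 genes with a match wholly before the start, with the word in capitals. All 4 were below every Mac-low library, which was not a condition for showing them.
Uhrf1, chr17:56303087-56303336, forward strand: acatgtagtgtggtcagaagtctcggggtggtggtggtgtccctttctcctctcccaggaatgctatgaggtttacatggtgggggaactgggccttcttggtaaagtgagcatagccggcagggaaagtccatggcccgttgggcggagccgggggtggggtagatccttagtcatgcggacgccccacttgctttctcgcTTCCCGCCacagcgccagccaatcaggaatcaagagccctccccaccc
Prim1, chr10:128014965-128015214, forward strand: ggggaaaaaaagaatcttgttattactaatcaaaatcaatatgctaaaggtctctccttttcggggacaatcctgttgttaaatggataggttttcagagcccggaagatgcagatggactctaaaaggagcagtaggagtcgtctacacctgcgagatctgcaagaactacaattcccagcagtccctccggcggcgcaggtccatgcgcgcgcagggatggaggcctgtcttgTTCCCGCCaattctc
Chaf1a, chr17:56040166-56040415, forward strand: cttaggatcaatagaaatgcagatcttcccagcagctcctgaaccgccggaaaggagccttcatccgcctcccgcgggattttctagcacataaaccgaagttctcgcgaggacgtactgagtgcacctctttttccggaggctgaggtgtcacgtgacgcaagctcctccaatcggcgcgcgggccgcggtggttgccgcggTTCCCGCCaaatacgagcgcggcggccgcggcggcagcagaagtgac
Rrm1, chr7:102441445-102441694, forward strand: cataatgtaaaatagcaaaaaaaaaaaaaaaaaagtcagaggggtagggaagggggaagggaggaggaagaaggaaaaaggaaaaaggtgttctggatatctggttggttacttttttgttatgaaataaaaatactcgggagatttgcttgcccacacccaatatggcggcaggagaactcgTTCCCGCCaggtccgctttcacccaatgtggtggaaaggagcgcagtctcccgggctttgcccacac
The word began 48 bases before the start in Uhrf1, 15 in Prim1, the primase, 47 in Chaf1a, a histone chaperone, and 67 in Rrm1, of ribonucleotide reductase, in each on the opposite strand. Their differences were -1.16 ± 0.09, -1.05 ± 0.12, -1.01 ± 0.09 and -0.93 ± 0.11 (SE).

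Mitotic genes were lower by less and with overlap. Of 30 members 25 were called lower and none higher (median -0.45), none was below every Mac-low library, and against MacLowKit+Sca1+ alone none was called, with a median of -0.19. Bub1 and Ttk, kinases of the spindle checkpoint, averaged 19.6 ± 4.55 and 11.5 ± 3.61 FPKM in MacHigh and 22.5 ± 2.04 and 15.2 ± 2.29 in MacLowKit+Sca1+. The MacHigh libraries spread more here than for replication, with list means of 5.55, 4.68, 5.59, 5.15 and 5.18 in replicates 1 to 5, and replicate 2 was the lowest in both lists. Ribosome biogenesis genes were lower in 24 of 34 cases and higher in none (median -0.56). Dkc1, dyskerin, and Nolc1 averaged 23.4 ± 2.32 and 31.5 ± 3.31 FPKM in MacHigh and 60.3 ± 12.9 and 80.6 ± 18.9 in MacLowKit-Sca1-, the highest group. The list was lower in 30 and 23 members against MacLowKit-Sca1- and MacLowKit+Sca1+, and against MacLowKit+Sca1- in 12 with 2 higher.

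G1 regulators went both ways, with 10 of 27 higher (37%) and 11 lower (40.7%), beside 27.3% and 29.3% of all rows. The list median was 0.13 as deposited and -0.04 after rescaling to the same sum. Cdk4, the cyclin D kinase, averaged 111 ± 6.93 FPKM in MacHigh and 176 ± 41.5 in MacLowKit+Sca1-, and was the member below every Mac-low library. E2f1 and Ccne2, cyclin E2, were lower at -0.64 ± 0.08 and -0.96 ± 0.13 (SE). Cdkn1a, the CDK inhibitor p21, averaged 136 ± 33.3 FPKM in MacHigh and 133 ± 28.5 in MacLowKit-Sca1- (adjusted p = 0.92 between them), against 28.98 ± 4.004 and 13.2 ± 1.28 in the Kit+ groups. Ccnd1, cyclin D1, differed by 1.21 ± 0.20 (SE; adjusted p = 5.1e-05), with 148 ± 66.6 FPKM in MacHigh, 98.6 ± 16.01 in MacLowKit-Sca1-, 98.3 ± 17.95 in MacLowKit+Sca1+ and 21.9 ± 6.14 in MacLowKit+Sca1-. Its call rested on the last group, with a difference of 0.50 without MacLowKit+Sca1- (adjusted p = 0.0575).

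Genes known to drive MLL-fusion leukaemia or self-renewal were lower in 12 of 26 cases and higher in 5 (median -0.18), beside 29.3% and 27.3% of all rows. Against MacLowKit+Sca1- alone 12 were lower and 11 higher, with a median of -0.03. The counts were 10 lower and 4 higher against MacLowKit-Sca1-, and 11 and 2 against MacLowKit+Sca1+. Myb, Myc and Sox4 were below every Mac-low library. Myc read 28.5 to 49.4 FPKM in MacHigh and 49.6 to 128 over the Mac-low libraries, a gap that is small beside the spread in either. Sox4 averaged 0.407 ± 0.161 FPKM in MacHigh and 16.7 ± 8.24 in MacLowKit+Sca1+. Erg, a factor of blood stem cells, was lower at -1.26 ± 0.22 (SE; adjusted p = 8.6e-05). Meis1, a partner of HOX proteins, was higher at 0.74 ± 0.12 (SE; adjusted p = 6.1e-05), with 7.75 ± 1.32 FPKM in MacHigh, 6.35 ± 1.73 in MacLowKit+Sca1+ and 1.88 ± 0.435 in MacLowKit+Sca1-, and it was 0.32 without MacLowKit+Sca1- (adjusted p = 0.0578). None of the 5 tested Hoxa genes of the list was called, and Hoxa9, chosen after its values were seen, averaged 3.99 ± 0.98 FPKM in MacHigh and 6.62 ± 2.92 in MacLowKit+Sca1+ (adjusted p = 0.44 against the mean). Of 19 stem and progenitor genes tested among 30 listed, 10 were lower and 4 higher (median -0.97), beside 29.3% and 27.3% of all rows. Against MacLowKit+Sca1+ alone 12 were lower and 2 higher, with a median of -1.19. The other 2 groups were nearer, with 8 lower and 6 higher against MacLowKit+Sca1- (median -0.25). Against MacLowKit-Sca1- 7 were lower and 6 higher (median -0.002). Egfl7 averaged 2.09 ± 1.05 FPKM in MacHigh and 45.8 ± 23.6 in MacLowKit+Sca1+. Cd93, a receptor of progenitors and monocytes, was above every Mac-low library, with 60.7 ± 19.6 FPKM against 38.2 ± 3.91 in the nearest group. Among BCL2 family genes, 9 of 15 were higher and 1 lower, beside 27.3% and 29.3% of all rows. Against MacLowKit+Sca1+ alone 5 were higher and 4 lower, with a median of 0.19. The counts were 7 and 3 against MacLowKit-Sca1-, and 9 and 1 against MacLowKit+Sca1-. Mcl1, a survival protein, ranged from 275 to 337 FPKM in MacHigh and 73.98 to 204 over the Mac-low libraries, and Bcl2l11, which encodes BIM, from 12.1 to 14.52 FPKM in MacHigh and 4.98 to 9.38 over the Mac-low libraries, while Bcl2 was lower at -0.38 ± 0.15 (SE; adjusted p = 0.037), with 10.3 ± 1.25 FPKM in MacHigh, 22.5 ± 3.41 in MacLowKit-Sca1-, 16.4 ± 6.38 in MacLowKit+Sca1+ and 7.3 ± 1.08 in MacLowKit+Sca1-. The Bcl2 difference was -0.047 without MacLowKit-Sca1- (adjusted p = 0.831). Its call was also lost without MacHigh replicate 3 (adjusted p = 0.113), replicate 2 (0.0558) or replicate 4 (0.07), without MacLowKit-Sca1- replicate 2 (0.0518) or 4 (0.0504), and without MacLowKit+Sca1+ replicate 2 (0.0578).

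Metabolic lists moved less. Respiratory chain and ATP synthase subunits were lower in 15 of 31 cases and higher in 1 as deposited (median -0.20), beside 29.3% and 27.3% of all rows. After rescaling to the same sum 25 of 31 were lower, so the number called rests on the scaling. The groups were also unlike: as deposited 20 were lower against MacLowKit-Sca1- and 12 against MacLowKit+Sca1-. Against MacLowKit+Sca1+ only 2 were lower, with a median of -0.08. Ndufa4 and Cyc1 averaged 225 ± 6.69 and 104.9 ± 5.31 FPKM in MacHigh and 275 ± 27.3 and 126 ± 12.99 in MacLowKit+Sca1+. Glycolysis and hypoxia genes were called in both directions, 9 of 30 higher (30%) and 6 lower (20%), beside 27.3% and 29.3% of all rows. These shares are near those of all rows, and the list median of 0.07 became -0.08 after that rescaling. Ankrd37, a target of hypoxia-inducible factor, averaged 17.1 ± 3.07 FPKM in MacHigh and 5.18 ± 1.28 in MacLowKit-Sca1-, and the glucose transporter Slc2a1 39.3 ± 5.62 and 27.5 ± 0.557. Pfkfb3, a driver of glycolysis, was lower at -0.52 ± 0.10 (SE; adjusted p = 0.00019), with 22.96 ± 2.04 FPKM in MacHigh, 19.7 ± 2.14 in MacLowKit-Sca1- and 57.6 ± 5.53 in MacLowKit+Sca1-, and its difference was -0.13 without MacLowKit+Sca1- (adjusted p = 0.331).

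**Figure D4:**
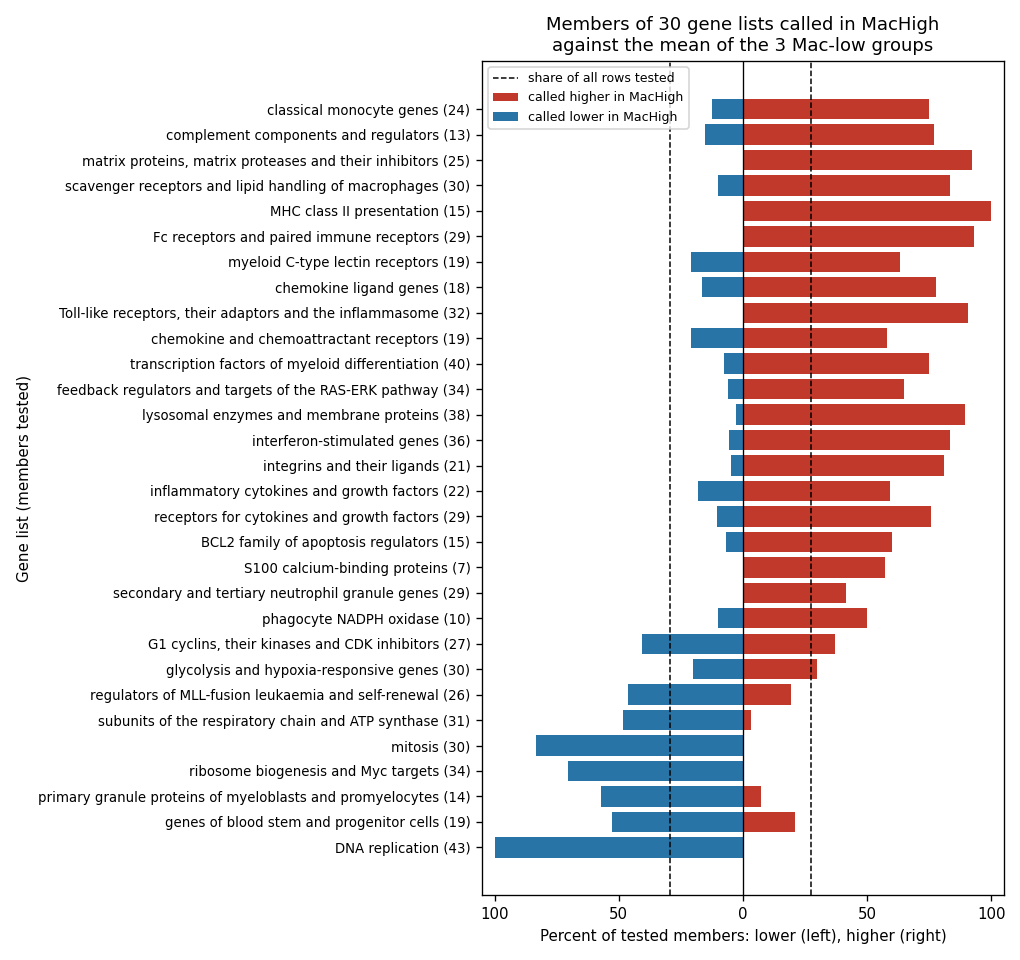
Percent of the tested members of 30 gene lists called higher (right) or lower (left) in MacHigh, ordered by median difference, with the number tested in brackets. The dashed lines mark the shares of all rows, 27.3% and 29.3%. DNA replication stands at 100% lower and MHC class II at 100% higher.

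Some genes that lie next to each other stood apart together. Of the tested rows 11364 (99.4%) had a position in RefSeq on GRCm38.p6, and 24 runs of 3 or more neighbouring tested genes were all above, or all below, every Mac-low library. The receptor genes C3ar1, Clec4a1 and Clec4a3 lay in 1 run at chr6:122820184-122969878, and Clec4n, Clec4d and Clec4e in the next at chr6:123229843-123289871. Clec4e, which encodes Mincle, averaged 56.5 ± 17.6 FPKM in MacHigh and 30.8 ± 5.97 in MacLowKit-Sca1-. The Fc receptors Fcgr2b, Fcgr4 and Fcgr3 formed a run at chr1:170960558-171065915, with Fcgr3 at 394 ± 43.7 FPKM in MacHigh and 194 ± 25.9 in MacLowKit+Sca1-. The chemokines Ccl2, Ccl7 and Ccl12 lay at chr11:82035577-82103399, and Ccl9 and Ccl6 at chr11:83572917-83623693. The cathepsins Ctsk and Ctss shared chr3:95434367-95556405, Ctsa and Pltp shared chr2:164830730-164857708, and Tlr1 and Tlr6, partners of TLR2, shared chr5:64803521-64970942. Ms4a6c, Ms4a6b and Ms4a6d, tetraspanning proteins of myeloid cells, lay at chr19:11469353-11604804, and Ms4a6d averaged 142 ± 34.3 FPKM in MacHigh and 25.5 ± 6.61 in MacLowKit-Sca1-. Several of these runs hold close paralogs, for example Sirpb1a with Sirpb1b at chr3:15295063-16217037 and Lilrb3 with Lilra6 at chr7:3712505-3915571, among which reads may be split.

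Of the 24 runs, 4 were below every Mac-low library. Sh2d5 and Kif17 lay with Hp1bp3 and Ddost at chr4:138216470-138312619. The GTPases Gimap8, Gimap9, Gimap4, Gimap6 and Gimap7, known from lymphocytes, lay at chr6:48647186-48724636. Gimap4 averaged 0.302 ± 0.0991 FPKM in MacHigh, 11.6 ± 3.88 in MacLowKit-Sca1-, 4.95 ± 1.6 in MacLowKit+Sca1+ and 1.63 ± 0.956 in MacLowKit+Sca1-. T cell markers were read beside them. Of 10 tested, 4 were lower and 1 higher in MacHigh, beside 29.3% and 27.3% of all rows, and against MacLowKit+Sca1- alone 3 were lower and 2 higher, with a median of 0.18. Their sum was 13.5 to 14.4 FPKM in MacHigh against 29.5 to 36.7 in MacLowKit-Sca1-, 14.2 to 35.6 in MacLowKit+Sca1- and 49.3 to 77.9 in MacLowKit+Sca1+. Of the CD3 chains, Cd3d read 1.16 to 5.6 FPKM in MacHigh, 6.26 to 19.5 in MacLowKit-Sca1-, 3.02 to 22.4 in MacLowKit+Sca1- and 0.50 to 3.24 in MacLowKit+Sca1+, and Cd3e averaged 0.0379 FPKM or less in every sorted group. The part of T and NK cells in the Gimap values was not tested.

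Markers of other cell types were read across MacHigh. Of 5 B cell genes tested, 2 were higher and none lower, beside 27.3% and 29.3% of all rows. The 2 higher were Cd22 and Fcer2a, the low-affinity IgE receptor, above every Mac-low library at 19.4 ± 9.27 and 15.1 ± 8.63 FPKM. Of the chains of the B cell receptor complex, Cd79a averaged 0.275 FPKM in MacHigh, and Cd79b read 21.8 to 26.95 there and 18.9 to 24.7, 17.6 to 28.3 and 14.1 to 29.8 in MacLowKit-Sca1-, MacLowKit+Sca1- and MacLowKit+Sca1+. The summed level of the list was 45.1 to 91.3 FPKM in MacHigh and 23.5 to 29.98, 20.2 to 31.8 and 35.4 to 41.8 in the same order. Pax5 and Ebf1 were listed at 0.001 in all 24 libraries, as Nras was, and were not read here. Of 13 red cell genes tested, 1 was lower, Tfrc, the transferrin receptor, and none higher, and Beta-s, a beta globin row, read 7.63, 13.2, 5.06, 77.8 and 3.74 FPKM in MacHigh against a mean of 882 in unsorted cells. Pf4, platelet factor 4, averaged 25.8 ± 12.5 FPKM in MacHigh and 6.71 ± 5.91 in MacLowKit+Sca1+, with the megakaryocyte gene Gp9 at 0.413 in MacHigh. Of basophil and mast cell genes Ms4a2 averaged 1.43 FPKM in MacHigh and 8.32 in MacLowKit-Sca1-. Prg2, an eosinophil granule protein, averaged 42.4 ± 25.5 FPKM in MacHigh and 57.9 ± 27.4 in MacLowKit+Sca1- and did not pass the test. Endothelial genes Cdh5 and Kdr averaged 0.506 and 0.0466 FPKM.

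The 5 MacHigh libraries agreed closely in most rows, with a median SD of 0.16 on the log2 scale, against 0.18 to 0.22 in the Mac-low groups. Only 91 rows (0.796%) had an SD over 1. The 6 rows of largest SD with a mean of 5 FPKM or more were all small RNA rows (Snord99, Snora61, Mir142, Snord95, Mir1982 and Mir5133), each listed at 0.001 in at least 2 of the 5 MacHigh libraries. Snord99 was listed at 0.001, 45842, 0.001, 47544 and 17032 FPKM. Among the next rows, chosen after their values were seen, were the small RNA locus AF357399, Rpl11, Rps23, Atp5l and Usmg5, most of them genes of ribosomal proteins or of the ATP synthase. Rpl11 read 0.152, 97.95, 0.0998, 1.05 and 0.21 FPKM in MacHigh. Cd209a also spread widely, with MacHigh replicate 1 at 35.6 FPKM and replicate 5 at 239. Replicates 2 and 5 had the highest mean level of MHC class II genes (7.28 and 7.45 on the log2 scale, against 6.66 to 6.94), and the lowest of secondary granule genes (6.58 and 6.34, against 7.004 to 7.25).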

How the data were processed

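Total RNA of 19 sorted libraries and 5 unsorted libraries was sequenced by the authors, who deposited 1 table of FPKM values per gene symbol. TopHat2 2.0.4, Cuffdiff and the mm10 build are named in the submitters' processing notes, with no role or setting. Read totals are not given in the sources used here, and steps between low FPKM values gave relative depths of 0.83 to 2.04 over the libraries, so values near 1 FPKM carry counting error that differs between libraries. FPKM divides by a total that small RNA rows share, which can shift all other genes of a library together.

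The members and the gene lists were chosen with earlier results of these data known. The filter kept 11464 rows that reached 1 FPKM in 4 or more sorted libraries, and 37 of them were left out as missing, being listed at 0.001 in a whole group while at 5 FPKM or more in every library of another, 35 of them in MacLowKit+Sca1- and 2 in MacHigh. Differences of log2(FPKM + 1) were fitted with limma 3.58.1 in R 4.3.3 (group means, variance trend, Benjamini-Hochberg adjustment over 11427 rows), and the procedure was tested on simulated data. Rows were also compared by whether all MacHigh libraries lay beyond all 14 Mac-low libraries. Alternatives were other scalings, filters and pseudocounts, replicate blocks, and leaving out each library or group.

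The text names the sorting markers, the 15 genes in each direction with the largest difference from their nearest group, up to 4 genes per list by moderated t with up to 3 that went the other way, the 2 highest markers of each other cell type in MacHigh, missing rows, members of runs of neighbouring genes, and the most variable rows. Some genes of these kinds are not reported here. Itgb2, Mll-AF9, Nras, Mll1, Mllt3, Prim1, Chaf1a, Rrm1, Apoe, Mrc1, Cd74, the Hoxa genes and the remaining cell type markers fall outside that rule and were chosen after their values were seen.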

Additional observations from a re-analysis of the deposited data

Results flagged for a closer look

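Within each sorted group, 215 genes named in the text were read for a single library far from the others of its group (Dixon's ratio of the gap to the range on the log2 scale, 95% critical value). Of 860 groups of 4 or 5 libraries, 53 held such a library, and chance alone gives about 1 in 20. The MacHigh libraries came up 10 times, of which replicate 3 accounts for 5.

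The highest MacHigh library stood apart for AF357399 (377.4 FPKM, replicate 3), Cd3e (0.04739 FPKM, replicate 1), Cd79a (0.6413 FPKM, replicate 4), Il13ra1 (68.47 FPKM, replicate 5) and Mgst1 (77.5 FPKM, replicate 3). Further highest MacHigh libraries stood apart for Nkg7 (20.59 FPKM, replicate 3), Prss57 (10.32 FPKM, replicate 3) and Rpl11 (97.95 FPKM, replicate 2). The lowest MacHigh library stood apart for Cdh5 (0.3181 FPKM, replicate 3) and Gimap7 (0.05489 FPKM, replicate 1).

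The highest MacLowKit-Sca1- library stood apart for Ccl12 (0.09244 FPKM, replicate 5), Gp9 (0.7656 FPKM, replicate 3), H2-DMb1 (30.23 FPKM, replicate 5), Kdr (0.1005 FPKM, replicate 3) and Mir142 (2457 FPKM, replicate 5). Further highest MacLowKit-Sca1- libraries stood apart for Mll-AF9 (9.162 FPKM, replicate 3), Snord95 (9777 FPKM, replicate 1) and Snord99 (23061 FPKM, replicate 5). The lowest MacLowKit-Sca1- library stood apart for Chi3l3 (221.7 FPKM, replicate 4), Fcgr4 (14.92 FPKM, replicate 4) and S100a6 (613.9 FPKM, replicate 4).

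The highest MacLowKit+Sca1- library stood apart for AF357399 (766 FPKM, replicate 1), Bub1 (44.12 FPKM, replicate 2), C3ar1 (0.2256 FPKM, replicate 4), Ccr2 (17.41 FPKM, replicate 5) and Cd22 (6.864 FPKM, replicate 5). Further highest MacLowKit+Sca1- libraries stood apart for Cfp (148.2 FPKM, replicate 5), Cyc1 (181.9 FPKM, replicate 3), Ddost (299.2 FPKM, replicate 3), Igj (0.0606 FPKM, replicate 4) and Metrnl (4.537 FPKM, replicate 5). Further highest MacLowKit+Sca1- libraries stood apart for Mir1982 (2668 FPKM, replicate 4), Mmp12 (1.085 FPKM, replicate 4), Psap (810.3 FPKM, replicate 5), Rpl11 (9.031 FPKM, replicate 4) and Snora61 (3944 FPKM, replicate 3). The lowest MacLowKit+Sca1- library stood apart for Bcl2 (5.401 FPKM, replicate 2), Hoxa9 (1.172 FPKM, replicate 2), Mir5133 (0.001 FPKM, replicate 4) and Ms4a6c (14.72 FPKM, replicate 2).

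The highest MacLowKit+Sca1+ library stood apart for AF357399 (1345 FPKM, replicate 2), Ecm1 (6.39 FPKM, replicate 4), Egr2 (1.7 FPKM, replicate 2), Ifnar1 (23.56 FPKM, replicate 2) and Ms4a6d (14.79 FPKM, replicate 2). Further highest MacLowKit+Sca1+ libraries stood apart for Snord99 (39842 FPKM, replicate 4), Tfrc (82.65 FPKM, replicate 1) and Ttk (18.57 FPKM, replicate 1). The lowest MacLowKit+Sca1+ library stood apart for Ccl12 (0.001 FPKM, replicate 3), Cd93 (16.73 FPKM, replicate 3), Msr1 (2.421 FPKM, replicate 3), Pltp (5.861 FPKM, replicate 3) and Psap (2547 FPKM, replicate 1).

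None of the genes with a single MacHigh library apart is among the 30 genes farthest from the Mac-low groups.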

How the results depend on the processing

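Of 160 tested genes whose difference the text describes, 157 were called, and 156 of these kept their direction in every alternative that tested them, at most 36, the exception being Cd207, which was 0.31 without the MacLowKit+Sca1+ group. Of the 157, 138 were called in each of these. Genes under the filter in an alternative were not tested in it, as Ccr3, Ccr9 and Timd4 were not without MacLowKit+Sca1+. A change of their direction there could not show, and all Ccr3 values in MacHigh lay above those of both other groups. Taking the 14 Mac-low libraries as 1 group lost the call of 18 and gave 2059 rows higher and 2039 lower, and leaving out MacLowKit+Sca1- lost 10. Rescaling to the same FPKM sum gave 2059 rows higher and 4642 lower, 2210 higher and 5685 lower against MacLowKit+Sca1-, and 435 rows above every Mac-low library. All 3347 rows called lower were called lower under that rescaling too, and 2059 of the 3125 higher rows stayed higher. The share of higher rows among calls was 48.3% as deposited, 30.7% at the same sum, 38.2% at the same sum counted without small RNA rows and rows at 0.001 in a group (chosen after seeing the data), 40.8% with quantile normalization and 51.2% with median-of-ratios scaling. Without MacLowKit-Sca1- 1249 rows lay above and 977 below every remaining Mac-low library, and without MacLowKit+Sca1+ 1543 and 980, since fewer libraries have to be cleared. Leaving out single libraries gave 2824 to 3245 rows higher, 2942 to 3408 lower, 823 to 949 above and 605 to 730 below every Mac-low library. Mll-AF9, which was not called, changed sign to -0.10 with the same sum, -0.0248 with the same sum counted without small RNA rows and -0.0199 without MacLowKit-Sca1-. Mcpt8, also not called, went from 0.26 to -0.026 without MacLowKit+Sca1- and -0.14 without MacLowKit+Sca1+, and was called higher, by 0.96, without MacLowKit-Sca1-. The cause was not tested. With the number or letter that opens the sample name as a replicate block, 3621 rows were higher and 3811 lower, and with the number in the title 3280 and 3531. That number or letter recurs across the groups, and deviations from the group means were correlated between MacHigh and each Mac-low group. Samples sharing it correlated over 0.1 in 4 of 4, 3 of 5 and 2 of 3 pairs with MacLowKit-Sca1-, MacLowKit+Sca1- and MacLowKit+Sca1+. Their mean r was 0.27, 0.11 and 0.24, against -0.05, -0.03 and -0.04 for other pairs. In the same order 4, 3 and 2 MacHigh libraries correlated best with their own number or letter. All 4 pairs held for MacLowKit-Sca1-, but a pairing over all 3 groups was not established. Depth limits genes near 1 FPKM, where the pseudocount sets the size of a difference: with a pseudocount of 0.1, Ccr3, Ccr7 and Timd4 lost their call.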

Other observations

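The most abundant neutrophil rows were among those listed at 0.001 in every MacLowKit+Sca1- library and were compared with the other 2 Mac-low groups only. S100a8 averaged 19533 FPKM in MacHigh, 17896 in MacLowKit-Sca1- and 11053 in MacLowKit+Sca1+, and S100a9 averaged 15288, 15364 and 8297 (limma adjusted p = 1 and 0.21 for S100a8, and 0.95 and 0.14 for S100a9, against the 2 groups). Ngp, a granule protein of neutrophil precursors, averaged 5129, 3863 and 1732 FPKM in the same order, and its difference of 1.58 from MacLowKit+Sca1+ was called (adjusted p = 0.015). Chi3l3, the chitinase-like protein Ym1, averaged 1279, 565 and 820 FPKM, and neither difference was called (adjusted p = 0.089 and 0.56).

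Small lists for further cell types held calls in both directions, beside 27.3% of all rows called higher and 29.3% lower. Of 4 plasma cell genes tested, 3 were higher, Prdm1, Xbp1 and Irf4, which myeloid cells also express, while Sdc1 and Igj averaged 0.283 and 0.0147 FPKM. Of 7 mast cell and basophil genes, 1 was higher and 2 lower. Mcpt8, a basophil protease, averaged 25.5 FPKM in MacHigh and 58.6 in MacLowKit-Sca1- and was not called against the Mac-low mean. Of 6 eosinophil genes, Ear2 was higher and Ccr3 lower, the latter through MacLowKit+Sca1+ alone. Of 7 megakaryocyte genes, 3 were higher and 1 lower, and of 4 endothelial genes 2 were higher and 1 lower.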
